A study of Bos taurus with 8 samples.

Results

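Notch signalling was examined in cultures of muscle cells from beef and dairy bulls through 10 genes of the pathway: the receptors *NOTCH1*, *NOTCH2*, and *NOTCH3*, the ligands *JAG1*, *JAG2*, and *DLL1*, the target genes *HES1*, *HEY1*, and *HEYL*, and *NUMB*, an inhibitor of the pathway. A gene was taken as measured where a probe carried a RefSeq accession of it. This held for 3 of the 10 genes, *JAG1* (NM_001191178), *HES1* (NM_001034678), and *HEYL* (NM_001024565), out of 7788 genes that could be named on the array. *NOTCH1*, *NOTCH2*, *NOTCH3*, *JAG2*, *DLL1*, *HEY1*, and *NUMB* had no matched probe and were not analysed here, so the receptors have no value below. Each measured gene had 1 probe, spotted 2 times, and each probe was well above background in 16 of 16 channels.

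The RNA came from proliferating primary cultures of semitendinosus muscle of 15-month-old bulls, frozen at 80% confluence. Limousin (LIM) and Hereford (HER) are beef breeds, and Holstein-Friesian (HF), a dairy breed, was the control. Each of 8 two-colour arrays carried a beef culture beside an HF culture, with LIM in Cy5 against HF in Cy3 on 4 arrays of 1 slide and HER in Cy3 against HF in Cy5 on 4 arrays of another slide. In each comparison the breed cannot be told apart from the slide or the dye orientation, whereas in the mean of both comparisons, called the beef mean here, a dye effect cancels. The methods describe 4 bulls per breed, and HF channels with the same replicate number deviated together on the 2 slides, so the LIM and HER comparisons appear to share their HF cultures. The main fit treats the 8 arrays as independent, so its p-values for the beef mean and for LIM against HER ignore this sharing. Counts over 8 arrays likewise appear to rest on 4 HF cultures. The cells were enriched for myoblasts by preplating and were not pure, and no group is a single clone or line.

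Notch is a receptor that is activated by ligands of the Jagged and Delta-like families on a neighbouring cell. Ligand binding leads to cleavage of the receptor by ADAM proteases and by gamma-secretase, and the freed intracellular domain enters the nucleus, where it binds RBPJ and turns on repressors of the HES and HEY families. In skeletal muscle, Notch signalling keeps satellite cells undifferentiated and restrains MyoD-driven differentiation. The pathway is also known for its role in blood vessels, in endothelial cells and in the mural cells around them.

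All values below are log2 ratios of beef over HF from the log ratio of the scanner software, so that a value above 0 is a higher and a value below 0 a lower level in the beef culture. A probe was called when the Benjamini-Hochberg adjusted p of limma over all 17631 probes tested was at most 0.05 and the fold change at least 1.3. *HES1* was lower and *HEYL* higher in LIM than in HF, and both were also called in the beef mean. No member was called in HER, either at the adjusted p or at an unadjusted p of at most 0.05, at which 34.8% of all probes were called. The 2 called members in LIM stood against 34.3% of all probes called in that comparison, and the 2 called in the beef mean against 38.1%. The background was 24.4% in HER, where 0 of the 3 members were called. These shares are high, so a call of 2 genes in 3 says little about the members as a group. The median of all probes tested was near 0 in each comparison, at -0.01 in LIM, -0.06 in HER, and -0.04 in the beef mean.

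*JAG1* encodes a transmembrane ligand of the Jagged family that activates Notch on the adjoining cell. Its log2 ratio was -0.26, 1.61, 1.27, and 1.13 on LIM arrays 1 to 4. On HER arrays 1 to 4 it was 0.53, -1.04, -2.08, and 0.96. Of the 4 LIM arrays, 3 lay above 0, the HER arrays were split 2 and 2, and the ranges of the 2 comparisons overlapped. The mean was 0.94 ± 0.82 (SD, n = 4) in LIM with an adjusted p of 0.17, and its 95% interval ran from -0.19 to 2.07. In HER the mean was -0.41 ± 1.41 (SD, n = 4) with an adjusted p of 0.567 and an interval from -1.54 to 0.72. *JAG1* was therefore not called in either breed, and both intervals leave room for a difference in either direction. The beef mean was 0.26 (95% interval -0.53 to 1.06, adjusted p = 0.556). The sign in HER rested on replicate 3, the lowest array, without which the mean was 0.15 with an adjusted p of 0.835.

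*HES1* encodes a basic helix-loop-helix repressor and is among the most widely used readouts of Notch activity, although other pathways also act on it. On LIM arrays 1 to 4 its log2 ratio was -0.97, -0.78, -0.88, and -1.46. All 4 LIM cultures thus had less *HES1* signal than the HF culture on the same array. On HER arrays 1 to 4 the ratio was -0.36, 0.24, -0.48, and -0.66, with 3 arrays below 0 and replicate 2 above it. The highest LIM ratio (-0.78) lay just below the lowest HER ratio (-0.66). The share of all probes that separate in this way was not counted, and slide and dye differ between the comparisons. In LIM the mean was -1.02 ± 0.30 (SD, n = 4), a 2.03-fold lower level with an adjusted p of 0.00291. In HER the mean was -0.31 ± 0.39 (SD, n = 4), with a 95% interval from -0.70 to 0.08 and an adjusted p of 0.201. The beef mean was -0.67 with an adjusted p of 0.00257, a 1.59-fold lower level. *HES1* was below HF on 7 of 8 arrays, under both dye orientations, though the slides appear to share their HF cultures.

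*HEYL* encodes a repressor of the HEY family that is also a direct Notch target. Its log2 ratio was 1.11, 2.82, 3.02, and 3.84 on LIM arrays 1 to 4. On HER arrays 1 to 4 it was 2.35, 0.24, -1.64, and 1.91. The 4 LIM cultures all exceeded HF, whereas the HER arrays ran from well below HF on replicate 3 to well above it on replicates 1 and 4. In LIM the mean was 2.70 ± 1.15 (SD, n = 4), a 6.48-fold higher level with an adjusted p of 0.0135. In HER it was 0.72 ± 1.82 (SD, n = 4), with a 95% interval from -0.76 to 2.20 and an adjusted p of 0.437. With 1 HER array left out, this mean ran from 0.17 without replicate 1 to 1.503 without replicate 3 and was 0.32 without replicate 4, and it was called in none of these fits (adjusted p from 0.0993 to 0.891). The beef mean was 1.71, a 3.26-fold higher level with an adjusted p of 0.0155. *HEYL* was above HF on 7 of 8 arrays, but without LIM replicate 3 its LIM mean of 2.59 was no longer called (adjusted p = 0.0554).

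**Figure D1:**
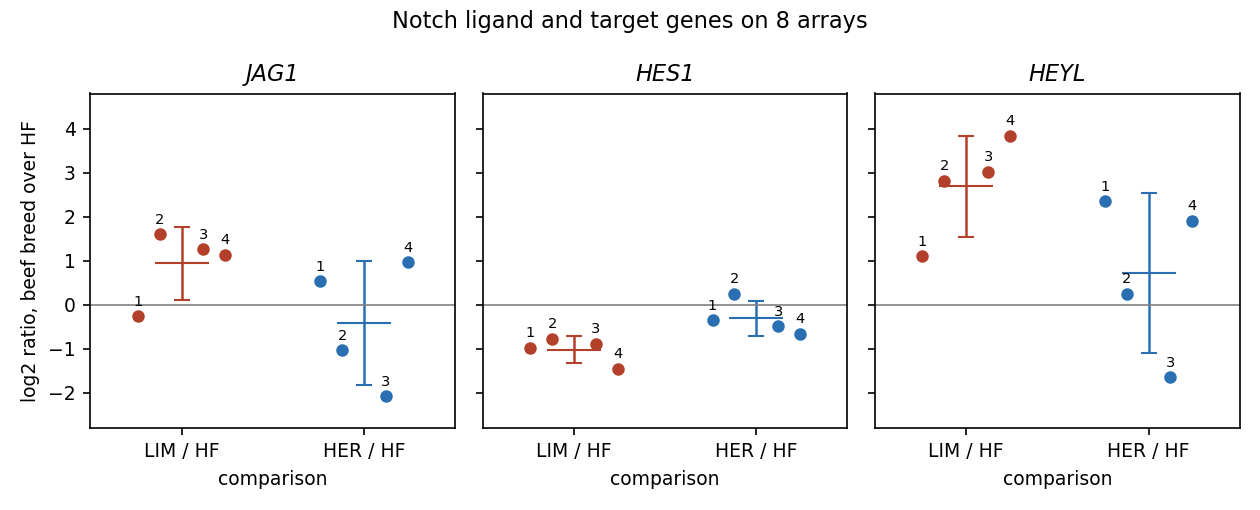
The log2 ratio of beef breed over HF is plotted for *JAG1*, *HES1*, and *HEYL*, with 1 point per array numbered by replicate, the mean as a horizontal bar, and the SD over 4 arrays as the error bar. All 4 LIM points lie below 0 for *HES1* and above 0 for *HEYL*, and HER replicate 3 is the lowest point for *JAG1* and *HEYL*.

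The direct test of LIM against HER called none of the 3 members, with 0.233% of all probes called in that contrast. The difference in log2 ratio, LIM minus HER, was -0.71 for *HES1* (95% interval -1.26 to -0.16, unadjusted p = 0.0176, adjusted p = 0.231). For *HEYL* it was 1.98 (95% interval -0.11 to 4.07, adjusted p = 0.364). For *JAG1* it was 1.34 (95% interval -0.25 to 2.94, adjusted p = 0.418). So *HES1* and *HEYL* being called in LIM and not in HER is not shown to be a difference between the breeds, and at an unadjusted p of at most 0.05 *HES1* was the 1 member called, against 14.1% of all probes.

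The channels of the arrays show which culture the ratios came from. Levels are given as the log2 processed signal minus the median of the tested probes in the same channel, and they are compared only within a probe. The share of all probes whose levels separate between breeds was not counted, so gaps between ranges are only described. The HF level of *HES1* was steady, from 2.37 to 2.79 over all 8 arrays. In LIM it was 1.58 ± 0.24 (SD, n = 4), from 1.24 to 1.78, and no LIM culture reached the lowest HF level. In HER it was 2.21 ± 0.31 (SD, n = 4), from 1.88 to 2.61. The order of mean *HES1* levels was LIM, HER, HF, in which the neighbouring levels of HER and HF overlapped and those of LIM and HER, measured on different slides and in different dyes, did not.

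For *HEYL*, the HF level ranged from -1.74 to 0.25 over the 8 arrays. The LIM level was 2.34 ± 1.22 (SD, n = 4), from 0.54 to 3.25, all above the highest HF level. The HER level was 0.02 ± 1.46 (SD, n = 4), from -1.75 to 1.81. HER thus spanned the whole HF range and part of the LIM range. The *JAG1* level ranged from 0.91 to 2.10 in HF, from 1.42 to 3.11 in LIM, and from 0.03 to 2.57 in HER, with overlap between all 3 breeds.

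**Figure D2:**
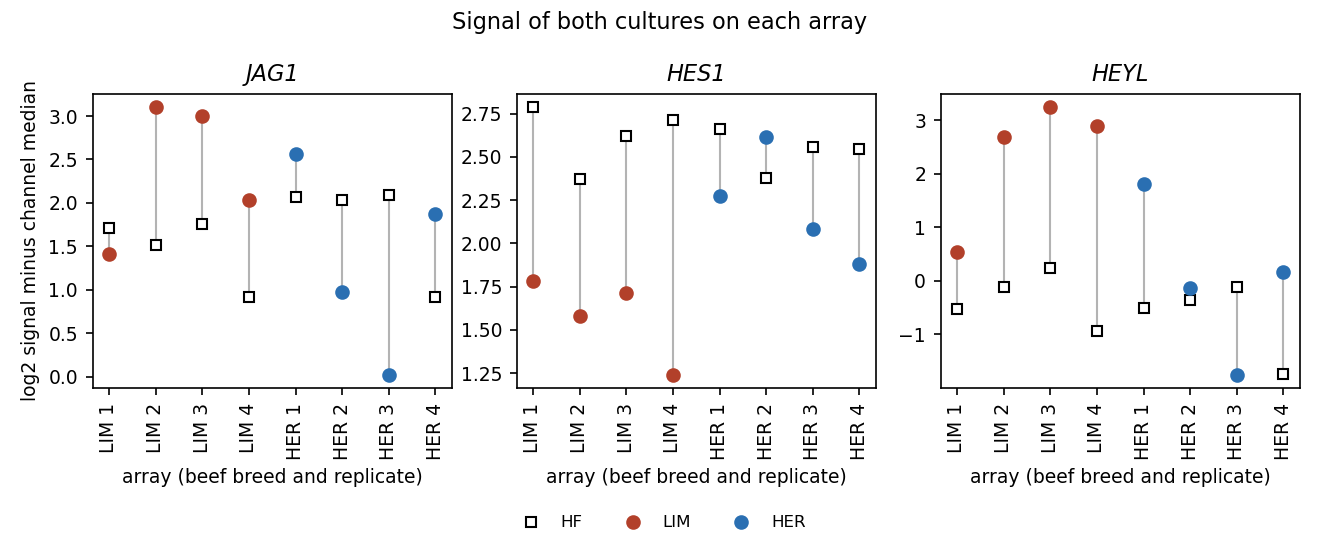
The level of each culture (log2 processed signal minus the median of the tested probes in its channel) is plotted for the 8 arrays, with open squares for HF, filled circles for the beef culture, and a line joining the cultures of 1 array. The scale differs between the panels, and levels are to be compared within a panel only. *HES1* in HF stays between 2.37 and 2.79, and the LIM circles stay at or under 1.78.

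Of 60 other genes of the pathway, 26 had a matched probe and 25 were tested. *CNTN1*, a noncanonical ligand, was not above background in any channel. In LIM, 1 of 25 was called, in HER 2, and in the beef mean 3, against 34.3%, 24.4%, and 38.1% of all probes. The median log2 ratio of the 25 genes was 0.02 in LIM, -0.02 in HER, and 0.05 in the beef mean, close to the medians of all probes. Most of the 25 tested genes thus had small ratios and were not called. No receptor was among them, most of the 60 genes have no value, and a gene not called is not shown to be unchanged.

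Among the ligands, *DLL3* had a mean log2 ratio of -0.10 in LIM and 0.27 in HER, and it was not called. *DLL4*, a Delta-like ligand best known from endothelial cells, was also not called, and it is named here after its values were seen because its arrays were so far apart. Its log2 ratio was -1.30, 5.50, 2.49, and 6.15 on LIM arrays 1 to 4 and 4.51, 2.30, -3.01, and 4.17 on HER arrays 1 to 4. LIM replicate 1 and HER replicate 3 were the 2 arrays below 0. The mean was 3.21 in LIM (adjusted p = 0.117), 1.99 in HER (adjusted p = 0.336), and 2.60 in the beef mean (adjusted p = 0.0663). *DLL4* was above background in 11 of 16 channels, so its ratio on some arrays was set by a signal close to background. Without HER replicate 3 the beef mean was 3.43 and was called (adjusted p = 0.0161), and likewise 3.35 without LIM replicate 1 (adjusted p = 0.0237).

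Of the noncanonical ligands, *DLK2* was higher in HER. Its log2 ratio was 0.18, 0.83, 1.32, and 0.65 on HER arrays 1 to 4, all above 0, with a mean of 0.74 ± 0.47 (SD, n = 4, adjusted p = 0.0323). In LIM it was -0.25 ± 0.41 (SD, n = 4, adjusted p = 0.375). The call in HER was lost with the replicate number as a block (adjusted p = 0.0699). With normexp background correction and loess normalization the HER mean was 0.12 (adjusted p = 0.413). In that setting 0 probes of the whole array were called in HER, so this lost call is not particular to *DLK2*. When backgrounds marked by the scanner software were replaced by the array median first, 2979 probes and 2 pathway genes were called in HER. *DLK1*, the paternally expressed relative of *DLK2*, had a mean of -0.15 in LIM and -0.08 in HER.

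Of 3 genes that modify the receptor on its way to the surface, 1 was called, in the beef mean. This was *MFNG*, which encodes Manic Fringe, a glycosyltransferase that extends sugars on Notch and alters its response to ligands. Its log2 ratio was -0.09, 4.05, 1.03, and 2.67 on LIM arrays 1 to 4 and 2.59, 1.35, -1.08, and 1.40 on HER arrays 1 to 4. As for *DLL4*, LIM replicate 1 and HER replicate 3 were the 2 arrays below 0. The beef mean was 1.49, a 2.81-fold higher level (adjusted p = 0.0397), and neither LIM (1.91, adjusted p = 0.0676) nor HER (1.07, adjusted p = 0.297) was called alone. The call was lost when same-numbered LIM and HER arrays were averaged first (adjusted p = 0.0523). *POFUT1* and *POGLUT1*, which attach the first sugars, had mean ratios between 0.06 and 0.24 in the 2 comparisons.

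Of 5 genes of the proteases that cleave Notch, 1 was called. *APH1A*, a subunit of gamma-secretase, had log2 ratios of -0.62, -0.67, -0.29, and -0.56 on HER arrays 1 to 4, all below 0. Its mean was -0.53 ± 0.17 (SD, n = 4), with an adjusted p of 0.0454. With the replicate number as a block the adjusted p was 0.0615, and the gene was no longer called. In LIM its mean was 0.06 ± 0.44 (SD, n = 4, adjusted p = 0.792), and that sign rested on replicate 4. The other 4, *ADAM10*, *PSEN2*, *APH1B*, and *PSENEN*, had means from -0.33 to 0.38 in the 2 comparisons.

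No gene of the nuclear complex was called in the main fit. *RBPJ*, which encodes the DNA-binding partner of Notch and is named here after its values were seen, had a mean log2 ratio of -0.36 in LIM and -0.28 in HER. Its beef mean of -0.32 had an adjusted p of 0.0505. It was below HF on 7 of 8 arrays, by less than 1.3-fold on average. Without LIM replicate 4 its beef mean was -0.42, and *RBPJ* was the 1 pathway gene called lower in the beef mean of that fit. *MAML2*, *SNW1*, and *CREBBP*, its coactivator partners, had means between -0.18 and 0.12. The corepressor genes *HDAC1* and *TLE3* were likewise not called, with means between -0.33 and 0.22.

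Of 5 genes of receptor endocytosis and turnover, *LNX1*, which encodes a ubiquitin ligase that acts on Numb, was called in the beef mean (0.87, 1.83-fold higher, adjusted p = 0.0483). Its log2 ratio was 1.15, 1.12, 3.07, and -0.47 on LIM arrays 1 to 4 and 0.45, 0.62, 0.72, and 0.32 on HER arrays 1 to 4. It was above HF on 7 of 8 arrays, with a much wider spread in LIM. With the block, LIM alone was called (1.22, adjusted p = 0.0448), and with same-numbered arrays averaged first the beef mean was not (adjusted p = 0.0819). With normexp and loess the beef mean was 0.16 (adjusted p = 0.099). *NUMBL*, the close relative of *NUMB*, had means of -0.21 in LIM and -0.14 in HER and was not called. *ITCH*, *DTX2*, and *DTX3* were not called either.

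The remaining target genes were *HES5* and *HEY2*. *HES5* had a mean log2 ratio of -0.21 in LIM and -0.12 in HER and was not called. *HEY2*, a HEY family repressor like *HEYL*, had 2 probes that were above background in 9 and 10 of the 16 channels. The brighter probe gave 1.11, 1.94, 2.21, and 1.14 on LIM arrays 1 to 4 and 2.33, -0.44, 0.78, and 0.94 on HER arrays 1 to 4. Its mean was 1.60 ± 0.56 (SD, n = 4) in LIM, a 3.03-fold higher level (adjusted p = 0.0139), and 0.90 ± 1.13 (SD, n = 4) in HER (adjusted p = 0.117). The beef mean was 1.25 (adjusted p = 0.00629). The dimmer probe had the same sign in each comparison and was called in LIM (0.98, adjusted p = 0.00939), in HER (0.69, adjusted p = 0.0482), and in the beef mean (0.83, adjusted p = 0.00274). In HF, each of the 2 probes was above background on 3 of 8 arrays, so both sets of ratios rest on a dim signal. The filter needed 4 channels, so both probes passed it only with the beef channels, where they are higher. The dimmer probe is therefore no separate support. The LIM call of the brighter probe was lost without LIM replicate 2 (adjusted p = 0.0553) or LIM replicate 3 (adjusted p = 0.0659). With normexp background correction and loess, the brighter probe gave 0.43 in LIM and was not called (adjusted p = 0.0566).

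**Figure D3:**
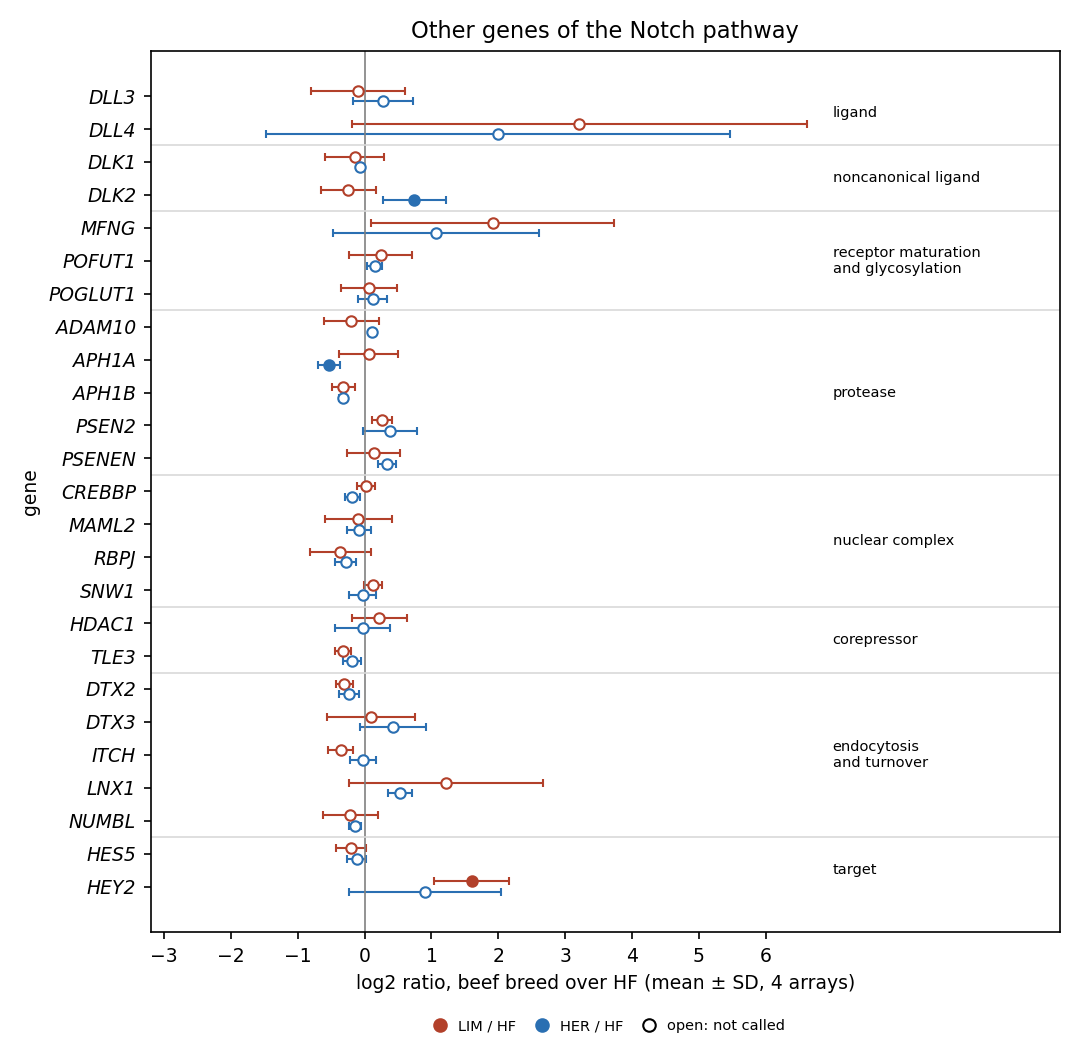
The mean log2 ratio of beef breed over HF is plotted with its SD over 4 arrays for the 25 tested pathway genes, ordered by role, with filled circles for called genes and open circles for genes not called. *DLL4* and *MFNG* lie to the right with wide error bars in both comparisons, *LNX1* has a wide bar in LIM and a narrow one in HER, and most other genes lie within 0.5 of 0.

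The same 2 arrays were lowest for *HEYL*, *JAG1*, *MFNG*, and *DLL4* and for the endothelial markers. Of 10 such markers, 7 had a matched probe and 6 were tested, the adhesion molecule *ESAM*, the angiopoietin receptor *TEK* with its relative *TIE1*, *EMCN*, *ERG*, and *KDR*. *FLT1* did not pass the filter, *PECAM1*, *CDH5*, and *VWF* had no matched probe, and none of the 6 was called in LIM, in HER, or in the beef mean. The median log2 ratio of the 6 was -0.96, 3.32, 0.88, and 3.46 on LIM arrays 1 to 4 and 3.57, -0.28, -3.02, and 1.58 on HER arrays 1 to 4. LIM replicate 1 and HER replicate 3 were the lowest arrays of their comparisons for these markers, as they were for *JAG1*, *HEYL*, *MFNG*, and *DLL4*. This pattern, chosen after the values were seen, held for 6 of 6 endothelial markers, 1 of 5 mural markers (*MCAM*), 1 of 3 leukocyte markers (*CD14*), 0 of 8 fibroblast markers, 0 of 11 myogenic markers, 2 of 3 members, and 3 of 25 pathway genes (*HDAC1* besides *DLL4* and *MFNG*), beside 8.08% of all probes with a value on every array. *MCAM*, an adhesion molecule of mural and endothelial cells, had log2 ratios of 0.62, 3.83, 2.19, and 3.15 on LIM arrays 1 to 4 and 2.12, 1.25, -2.45, and 1.76 on HER arrays 1 to 4. Unlike the 6 endothelial markers it was called, in LIM (2.45, adjusted p = 0.0362) and in the beef mean (1.56, adjusted p = 0.0418). The summed signal of the 6 markers, in ppm of the channel total, ranged from 5.10 to 127 in LIM and from 3.47 to 103 in HER. In HF it ranged from 8.54 to 32.8 beside LIM and from 8.52 to 27.5 beside HER. The highest HF value on each slide was that of replicate 3. The low ratios on HER replicate 3 thus came from a low HER signal (3.47) beside a high HF signal (27.5). HER replicate 3 also had the most outlier spots (130) and the lowest share of probes above background in its beef channel (68.8%).

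The part of endothelial or mural cell RNA in these results was not tested. In RNA of a whole culture, fewer cells of a type and less RNA per cell cannot be told apart. Without HER replicate 3, the beef mean of *HEYL* was 2.10 (adjusted p = 0.00366) and that of *HES1* was -0.64 (adjusted p = 0.00865). Without LIM replicate 1, the LIM mean of *HEYL* was 3.22 (adjusted p = 0.0146) and that of *HES1* was -1.04 (adjusted p = 0.0117). Each array left out was the lowest of its comparison for *HEYL*, so the mean of *HEYL* had to rise. These fits are no test of the part of endothelial RNA.

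**Figure D4:**
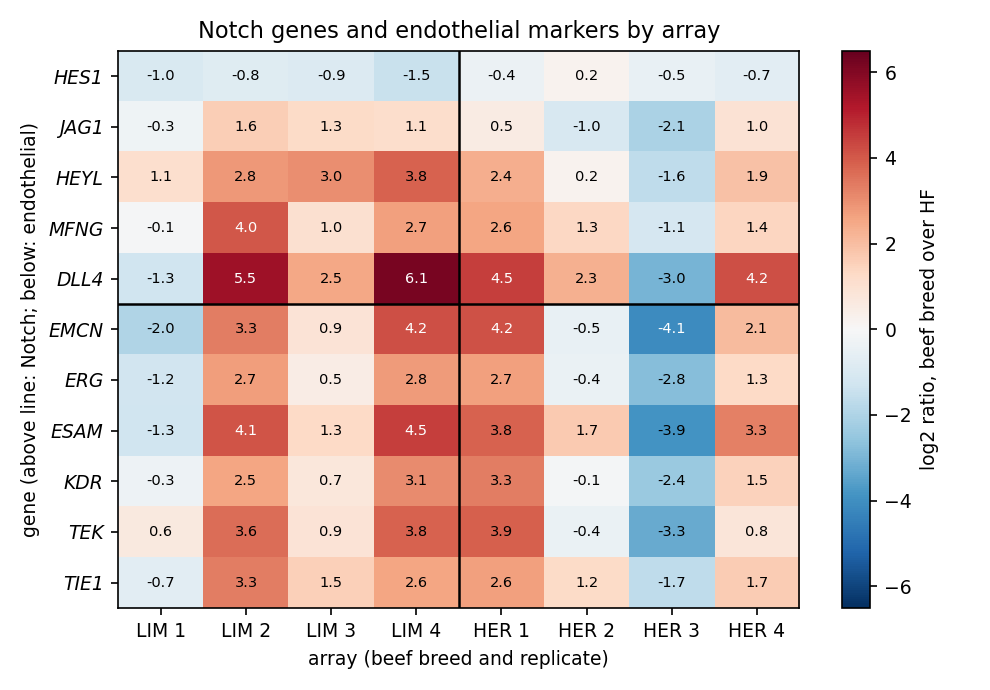
Each cell gives the log2 ratio of beef breed over HF on 1 array (columns) for 5 Notch genes above the line and 6 endothelial markers below it, with red for a higher and blue for a lower level in the beef culture. HER replicate 3 is blue for every gene shown, and *HES1* alone is blue on all 4 LIM arrays.

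Markers of the other cell types were measured on the same arrays. Of 12 myogenic markers, 11 were tested. Of these 11, 9 were called higher in LIM, 9 in HER, and 10 in the beef mean, with none lower. Their median log2 ratio was 2.41, 2.07, and 2.05. Of all probes, 34.3% were called in LIM, 24.4% in HER, and 38.1% in the beef mean, in either direction. The largest beef means were those of *ACTA1* (4.70), *MYH3* (4.18), and *TNNC1* (2.76), all contractile genes of differentiating muscle, and *PAX7* had no matched probe. All 11 were above background in 16 of 16 channels, so the markers of the labelled cell type were present in all 3 breeds. The summed myogenic signal, in ppm of the channel total, was 727 to 1942 in LIM and 583 to 1610 in HER, against 184 to 630 in HF. Its part in the *HES1* and *HEYL* results was not tested.

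Of the mural cell markers, which mark smooth muscle cells and pericytes, 2 of 5 tested were higher in LIM, 2 in HER, and 3 in the beef mean, none lower. These 3 were *MYH11* (1.56), *MCAM* (1.56), and *ACTA2* (1.21). Of 8 fibroblast markers tested, 5 were higher and 1 lower in LIM, 5 higher and 2 lower in HER, and 6 higher and 2 lower in the beef mean, led by *COL3A1* (2.69), *COL1A2* (2.55), and *COL1A1* (2.22). The 2 lower genes were the growth factor receptor *PDGFRA* (-1.42), lower in both comparisons, and the transcription factor *TCF21* (-1.13), called in HER but not in LIM. *DCN* was counted as higher by its brighter probe (beef mean 1.63). Its dimmer probe had the opposite sign (-0.35, adjusted p = 0.0219) and was not called, with a fold change of 1.27. Of 3 leukocyte markers tested, *CD68* was higher in each comparison (beef mean 0.81), and *LYZ* and *CD14* were not called. Of 4 collagen genes known as Notch targets in satellite cells, *COL6A1* alone had a matched probe and was higher in LIM (0.66, adjusted p = 0.0396) and in the beef mean (0.47, adjusted p = 0.0302) but was not called in HER (0.28, adjusted p = 0.348). Beside these marker counts, 34.3% of all probes were called in LIM, 24.4% in HER, and 38.1% in the beef mean, in either direction. With 5 mural and 3 leukocyte markers tested, their counts say little about these cell types as groups. The part of mural cells, fibroblasts, or leukocytes in the Notch values was not tested.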

How the data were processed

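RNA of 8 beef and HF culture pairs was measured on two-colour arrays of 21475 probes, and groups, dyes, and replicate numbers were taken from the labels. The authors deposited scanner files from Feature Extraction 10.7.3.1. They hold the intensity of each spot in Cy5 (red) and Cy3 (green) and their log10 ratio, red over green, background-subtracted and dye-normalized by that software. The deposited series table holds the same log10 ratios. They were turned to log2 beef over HF and averaged over the spots of a probe without outlier spots. Of these, 17631 that rose well above background in 4 or more of 16 channels were tested, in one limma 3.58.1 fit (lmFit, eBayes; R 4.3.3) of all 8 arrays. Between 68.8% and 85.2% of probes were above background per channel, no spot was saturated, and precision is limited by the number of arrays.

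Names came from RefSeq accessions through a table on ARS-UCD2.0 (7793 of 20693 matched). Coordinates were left out, since the array header names another build, and probe sequences were not used here. Genes with 2 probes were counted by the brighter. All members were named, with the called pathway genes and up to 3 markers per list with the largest beef mean, and *DLL4* and *RBPJ* were added after their values were seen. The members and lists were chosen with earlier results of these data known. Pairing was checked: between the slides, HF channel deviations of the same number correlated at 0.62 to 0.82 over probes and those of different numbers at -0.38 to 0.02, whereas ratio deviations of the same number ranged from -0.24 to 0.54. The labels do not state this pairing. On simulated data of 17631 probes, 52% of log2 changes of 1 and 90% of those of 2 were recovered in LIM, and 40% and 78% in HER. Each size of change was given to 100 probes in LIM and 50 in HER. This is a far smaller share than the 34.3% and 24.4% called in the data, and shared HF cultures were not simulated. The recovered shares therefore do not describe the calls in the data.

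Alternatives covered background correction (normexp with an offset of 50), normalization, filters, outlier spots, the methods' t-test, thresholds, array weights, the replicate block, and leaving out each array.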

Additional observations from a re-analysis of the deposited data

Results flagged for a closer look

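The log2 ratio of *APH1A* on LIM replicate 4 was 0.72, far from the other 3 LIM arrays, which ran from -0.22 to -0.10. About 1 in 20 groups of this size is picked out in this way by chance, and the sample was kept in all values. *APH1A* was not alone on this array: *ADAM10* was -0.81 there, against -0.049 to 0.045 on the other 3 LIM arrays. Without LIM replicate 4, 7011 probes were called in LIM and 5439 in HER, against 6056 and 4302 with it.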

How the results depend on the processing

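In LIM, *HES1* was called under 23 of 24 alternatives, with log2 ratios from -1.11 to -0.88, and *HEYL* under 22 of 24, from 2.23 to 3.22. In the beef mean, *HES1* was called under 24 of 24, from -0.76 to -0.55, and *HEYL* under 23 of 24, from 1.43 to 2.10. *JAG1* was called at the adjusted p under 0 of 24 in any comparison, and no member was called in HER (0 under every alternative, though at an unadjusted p *HES1* was called without HER replicate 2 and *HEYL* without HER replicate 3). The exceptions were the methods' t-test after adjustment, which called 0 members in LIM and 1 in the beef mean (with an adjusted p in LIM of 0.061 for *HES1* and 0.0888 for *HEYL*, and of 0.0632 for *HEYL* in the beef mean; 2 members at an unadjusted p), and LIM without replicate 3. At an unadjusted p, *JAG1* was called in LIM with normexp and loess and with each comparison fitted alone. The same held in LIM without HER replicate 3 and without LIM replicate 1. *JAG1* was so called in the beef mean with normexp and loess. In LIM minus HER this held with array weights, without HER replicate 4, and without LIM replicate 1. The sign of *JAG1* in HER turned to 0.23 with normexp and loess and to 0.15 without HER replicate 3 (-0.86 to 0.15 over arrays left out), and that of *APH1A* in LIM turned to -0.0893 with array weights and to -0.16 without LIM replicate 4 (-0.16 to 0.16). *DLK2* was not called in HER without HER replicate 2, 3, or 4, *APH1A* was called only without LIM replicate 4 among the leave-one-out fits, *HEY2* in LIM was 0.43 with normexp and loess (adjusted p = 0.0566), and in the beef mean *MFNG* was called only without HER replicate 3 or LIM replicate 1 and *LNX1* only without LIM replicate 4. The causes were not tested.

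Counts of all probes called over arrays left out ranged from 3796 to 7011 in LIM (lowest without LIM replicate 3), from 1527 to 5439 in HER (1574 without HER replicate 1, 1527 without HER replicate 2, 2660 without HER replicate 3), from 5856 to 7459 in the beef mean, and from 1 to 14 in LIM minus HER, against 6056, 4302, 6723, and 41. Members called ranged from 1 to 2 in LIM, 0 to 0 in HER, and 2 to 2 in the beef mean, and pathway genes from 0 to 5, 0 to 2, and 1 to 4. With normexp and loess, 0 pathway genes were called in LIM (3 at an unadjusted p) and 0 in HER, 0 probes in HER (1742 at an unadjusted p by limma, and 2979 with marked backgrounds replaced), 3289 in the beef mean, and 0 in LIM minus HER (1522 at an unadjusted p). On HER replicate 3, the red background exceeded 500 at 38 spots (highest 775167, median 37). LIM minus HER called 1 probe with marked backgrounds replaced, 1 with no background correction, 12 after scale normalization, 76 with no filter, 0 with the filter at 16 channels (1839 at an unadjusted p), 2482 at an unadjusted p, 2135 by the methods' t-test unadjusted, 232 with array weights, and 0 with the block (2706 at an unadjusted p). Pathway calls in LIM were 0 with the filter at 16 channels, 3 at an unadjusted p, 4 with no fold threshold, and 6 with array weights. In HER they were 1 with centred arrays, 1 with no filter, and 4 at an unadjusted p, and in the beef mean 1 with no filter, 1 with the filter at 16 channels, 7 with no fold threshold, and 5 with array weights. The methods' t-test after adjustment called 1002 probes in LIM, 2 in HER, 0 pathway genes in LIM, 0 in HER, and 1 in the beef mean. The share of HER calls that were higher was 42.6%, 52% with centred arrays, 54.8% with marked backgrounds replaced, and 55.1% with no background correction.

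With the replicate block, the members' calls were unchanged, and pathway calls were 2 in LIM and 0 in HER (3 at an unadjusted p). Averaging same-numbered LIM and HER arrays first, chosen after seeing the data, called 5758 probes, 2 members, and 1 pathway gene in the beef mean. Fitting each comparison alone gives no value for the beef mean or LIM minus HER. Signal over background limits *DLL4*, *HEY2*, and *LNX1*, which were dim in some channels.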
